A study of Mus musculus with 24 samples.

Results

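The windows described here, called steady high, are 267 genomic segments of 100 bp, out of 1000 windows in the deposited table. Their DNA methylation score in mouse epididymal fat was high on average in vehicle animals, though not in every animal. They were chosen on the measured values themselves: a window had to be listed at 0 in at most 2 of 12 animals and to have a mean score of 0.60 or more over the 6 vehicle animals. Of the 1000 windows, 647 met the limit on zeros, and 267 of these (41.3%) also reached the mean. No window with a vehicle mean of 0.60 or more was lost to the limit on zeros. The levels that made these windows members are therefore a description, and no test is attached to them.

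The samples were epididymal white fat of CD-1 mice, an outbred stock, taken from males at 19 weeks of age. Of the 12 animals, 6 were born to dams dosed orally with bisphenol A (BPA), 500 ug/kg daily on gestational days 9 to 18, and 6 to dams that got the corn oil vehicle. All offspring ate the same chow with 4% fat, and the labels name neither litters nor any genetic alteration. Sonicated DNA was captured with recombinant human MBD2 protein before sequencing (MBD-seq), and RNA was sequenced from the same tissue, so the study has 24 libraries, 12 of each kind. P-values and SDs take each animal as an independent unit.

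In mammals, DNA methylation is laid down almost wholly on the cytosine of CpG dinucleotides, and a methylated site is copied to the new strand when the cell divides. The methyl-CpG binding domain of MBD2 holds DNA that carries methylated CpGs, and more so where they are dense. Most CpGs outside CpG islands are methylated in adult tissue, while active promoters and enhancers are usually depleted of the mark. Fat also holds vessels, immune cells and stroma beside adipocytes, and a score from whole tissue does not separate them.

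The score runs from 0 to 1 with 2 decimals. Its deposited name holds MEDIPS, edgeR and the word normalized. The labels and files do not say which quantity it is, how the 1000 windows were chosen or how many reads stand behind a value. The score is therefore not read as a percentage of methylated DNA, and the depth is unknown. Each library took only 54 to 67 distinct values over the 1000 windows. In 11 animals the commonest value above 0 lay between 0.42 and 0.44 and held 14.4% to 19.6% of the windows above 0, and the second commonest lay between 0.51 and 0.53. In BPA animal 1 the commonest value was 0.62. The steps between neighbouring values limit how finely animals can be told apart. The files give positions on mm9 without genes or sequence, so the windows are named by position only.

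White fat transcripts were high in the RNA libraries of all 12 animals: the adipokine gene Adipoq lay between 22030 and 41685 normalized read counts, and the lipid droplet gene Plin between 4366 and 7395. Both ends of the MBD score range were libraries of the BPA group. Over all 1000 windows the mean score was 0.697 in BPA animal 1, 0.332 in BPA animal 3 and between 0.415 and 0.489 in the other 10 animals. BPA animal 1 had 11 of the 1000 windows at 0 and BPA animal 3 had 332, against 130 to 222 in each of the others. In RNA, BPA animal 3 was also the highest of 12 animals in 7 of 10 brown fat marker genes, a list written with these values known. The summed level of the list was 2495 in BPA animal 3, 413.9 to 654.6 in the other BPA animals and 350.0 to 664.4 in vehicle animals, with Zic1 close to 0 in every animal. Ucp1, the uncoupling protein gene of brown fat, was 1463 of that sum in BPA animal 3. Without Ucp1 the sum was 1032 in BPA animal 3, 409.8 to 651.8 in the other BPA animals and 337.2 to 625.1 in vehicle animals. The part of this in the MBD scores was not tested. Values that rest on these libraries are given below with and without them.

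Among the 267 steady high windows BPA animals 1 and 3 again held the 2 ends of the range. BPA animal 1 had a mean member score of 0.872, with values from 0.76 to 1, and was above every other animal in 266 of 267 windows, as it was in 913 of all 1000. In the remaining one, on chromosome 9, it was level with BPA animal 2 at 0.82. BPA animal 3 had a mean of 0.576 and was below every other animal in 142 windows. The other 4 BPA animals had means of 0.688, 0.671, 0.667 and 0.685 for animals 2, 4, 5 and 6. The vehicle animals had means of 0.703, 0.701, 0.668, 0.651, 0.690 and 0.678 for animals 1 to 6. Averaged over animals, BPA stood at 0.693 ± 0.0968 and vehicle at 0.682 ± 0.0204 (SD, n = 6 each). Without BPA animals 1 and 3 the BPA value was 0.678 ± 0.0105 (SD, n = 4), inside the range of the vehicle animals.

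**Figure D1:**
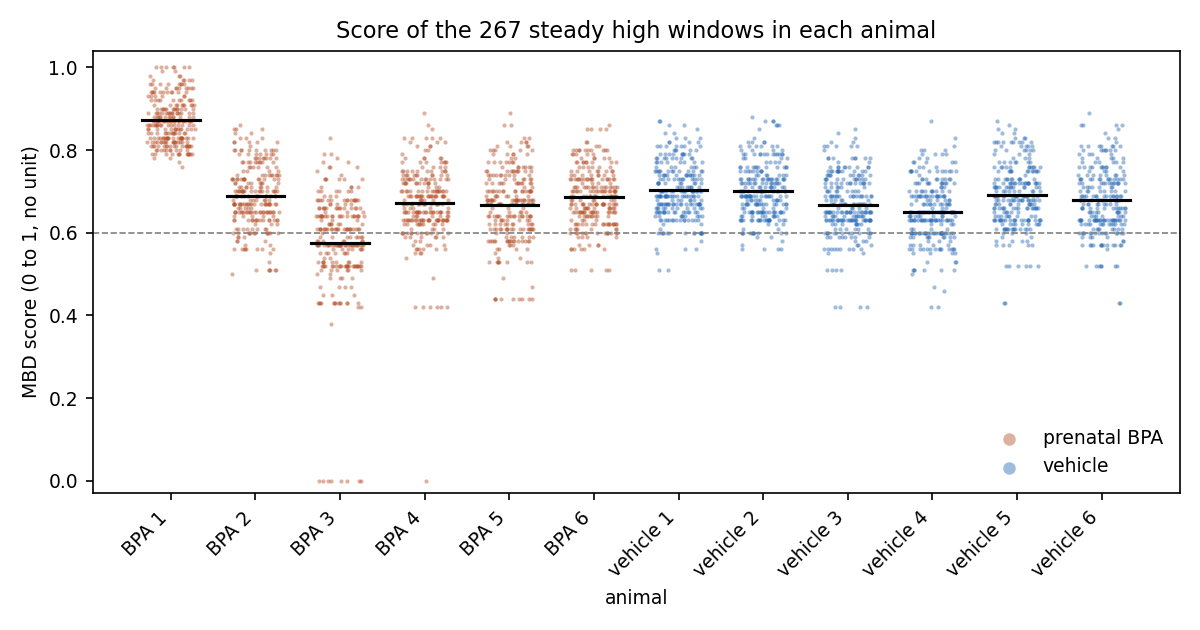
Each point is 1 of the 267 steady high windows in 1 animal, with the MBD score on the vertical axis, the mean of each animal as a black bar and the threshold of 0.60 dashed. BPA animal 1 sits highest with a mean of 0.872, BPA animal 3 lowest with 0.576 and 8 windows at 0, and the other 10 animals lie between 0.651 and 0.703.

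The place of the members within each library is largely fixed by the rule in the vehicle animals. The median member stood at the 87.5th percentile of all windows in BPA animal 1 and at the 85.85th in BPA animal 3. In the other BPA animals it stood between the 85.55th and the 86.85th percentile, and in the vehicle animals between the 86.2nd and the 87.35th. All 267 members were above the median window of their library in BPA animal 1, and 243 were in BPA animal 3.

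Most members were also high in the animals whose mean the rule did not use. The BPA mean was 0.60 or more in 252 of 267 windows (94.4%), in 219 (82.0%) without BPA animal 1 and in 240 (89.9%) without BPA animals 1 and 3. Not all members were high in every animal. The lowest of the 12 scores was 0.60 or more in 38.2% of the windows, and in 54.7% when BPA animals 1 and 3 were left out. By animal, 267 members reached 0.60 in BPA animal 1, 126 in BPA animal 3 and 215 to 248 in the other BPA animals, against 218 to 260 in vehicle animals. Of the 733 windows that were no members, 69.7% also reached 0.60 in BPA animal 1, so the count in that library does not set the members apart. In BPA animal 3 1.64% of them did, in the other BPA animals 6.82% to 14.1%, and in vehicle animals 5.73% to 15.7%.

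The highest scores belonged to a few windows. The largest vehicle mean was that of chr14:68446201-68446300, with scores of 1, 0.85, 0.75, 0.83, 0.86 and 0.85 in BPA animals 1 to 6 and of 0.87, 0.88, 0.84, 0.83, 0.87 and 0.80 in vehicle animals 1 to 6. The BPA animals averaged 0.857 ± 0.0809 and the vehicle animals 0.848 ± 0.0306 (SD, n = 6 each), and the groups overlapped. The next was chr19:41179901-41180000, at 1, 0.83, 0.68, 0.78, 0.83 and 0.85 in BPA animals and at 0.81, 0.87, 0.85, 0.87, 0.82 and 0.86 in vehicle animals. There BPA animal 3 was the only one under 0.78. Close behind, chr8:111972301-111972400 averaged 0.875 in BPA and 0.842 in vehicle, and had the largest BPA mean of all members. The BPA animals averaged 0.855 and the vehicle animals 0.840 at chr4:150147501-150147600, and the BPA animals averaged 0.862 and the vehicle animals 0.835 at chr11:106856601-106856700.

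A score of 1, the top of the scale, occurred 7 times in the whole table, each time in BPA animal 1 and each time in a member. These 7 windows had vehicle means of 0.808 to 0.848. A value at the top of the scale cannot show any further excess of that library, which bounds the BPA mean of these windows.

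At the lower end, 97 members (36.3%) had a vehicle mean of at least 0.60 and under 0.65, 75 of at least 0.65 and under 0.70, 51 of at least 0.70 and under 0.75, 34 of at least 0.75 and under 0.80, and 10 of 0.80 or more. The last members inside the threshold were chr5:141488601-141488700, chr9:21747701-21747800 and chr12:38067701-38067800, each with a vehicle mean of 0.60, and chr4:85307101-85307200 with 0.602. Their BPA means were 0.520, 0.615, 0.633 and 0.603. The nearest windows outside it were chr3:34252601-34252700 and chr3:35879601-35879700, with vehicle means of 0.598, and chr1:180949201-180949300 and chr6:41581701-41581800, with 0.597. Their BPA means were 0.617, 0.560, 0.655 and 0.630. The windows on both sides of the threshold had scores in the same range, so membership there turns on a difference smaller than the SD between vehicle animals, which was 0.0248 to 0.111 in the members named.

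The spread between animals was small in vehicle and larger in BPA. The median SD per window was 0.100 in BPA and 0.0392 in vehicle. Without BPA animals 1 and 3 the median SD of the other 4 BPA animals was 0.0356. In the 380 windows that met the limit on zeros with a vehicle mean under 0.60, the median SDs were 0.120 in BPA and 0.0719 in vehicle. The rule limits the zeros a window may hold, so these SDs are a description. Among members, the median SD was 0.103 in BPA and 0.0429 in vehicle for those with a vehicle mean under 0.65, and 0.0816 in BPA and 0.0297 in vehicle for the 10 windows at 0.80 or more.

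**Figure D2:**
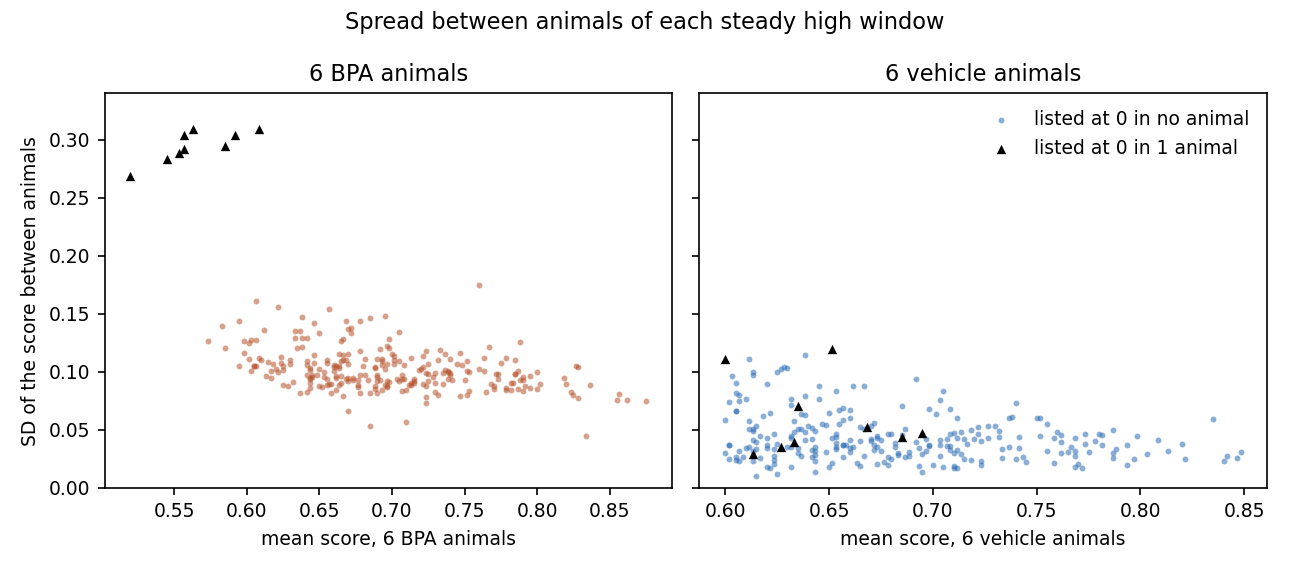
The SD between the 6 animals of a group is plotted against the mean score of that group for each of the 267 windows, BPA on the left and vehicle on the right. The 9 windows listed at 0 in 1 animal are triangles and hold the highest BPA SDs, up to 0.310, while vehicle SDs reach 0.120.

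By the SD over all 12 animals, the steadiest member was chrX:72908201-72908300. Its scores were 0.92, 0.83, 0.79, 0.83, 0.81 and 0.82 in BPA animals 1 to 6. In vehicle animals 1 to 6 they were 0.83, 0.82, 0.80, 0.79, 0.83 and 0.86. Its SD over the 12 animals was 0.0352. BPA animal 1 stood above the rest there, but the other 11 scores lay within 0.79 to 0.86. The next 2 by this SD were on the X chromosome as well. At chrX:136996701-136996800 the scores were 0.81, 0.70, 0.64, 0.69, 0.69 and 0.73 in BPA animals and 0.73, 0.71, 0.68, 0.65, 0.75 and 0.72 in vehicle animals. At chrX:8944901-8945000 the BPA animals averaged 0.685 ± 0.0536 and the vehicle animals 0.665 ± 0.0404 (SD, n = 6 each). The fourth was chr4:150147501-150147600, described above. This order depends on BPA animals 1 and 3. Without them the SDs of the X-linked windows were 0.0193, 0.0292 and 0.0320, in the order named. That of the window on chromosome 4 was 0.0220. Over all members, the SD of these 10 animals had a lowest value of 0.0151 and a first quartile of 0.0313.

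These 3 X-linked windows were also those where BPA animal 1 rose least above the vehicle mean. Its excess there was 0.0983, 0.103 and 0.125, below the lowest excess of 0.135 among the 259 autosomal members. In the other 5 members on X the excess of BPA animal 1 was 0.180 to 0.208, which is inside the autosomal range. The median excess was 0.182 over the 8 members on X and 0.190 over the autosomal members. The 3 windows were singled out after their values were seen, the SD that named them contains this excess, and no test was made.

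**Figure D3:**
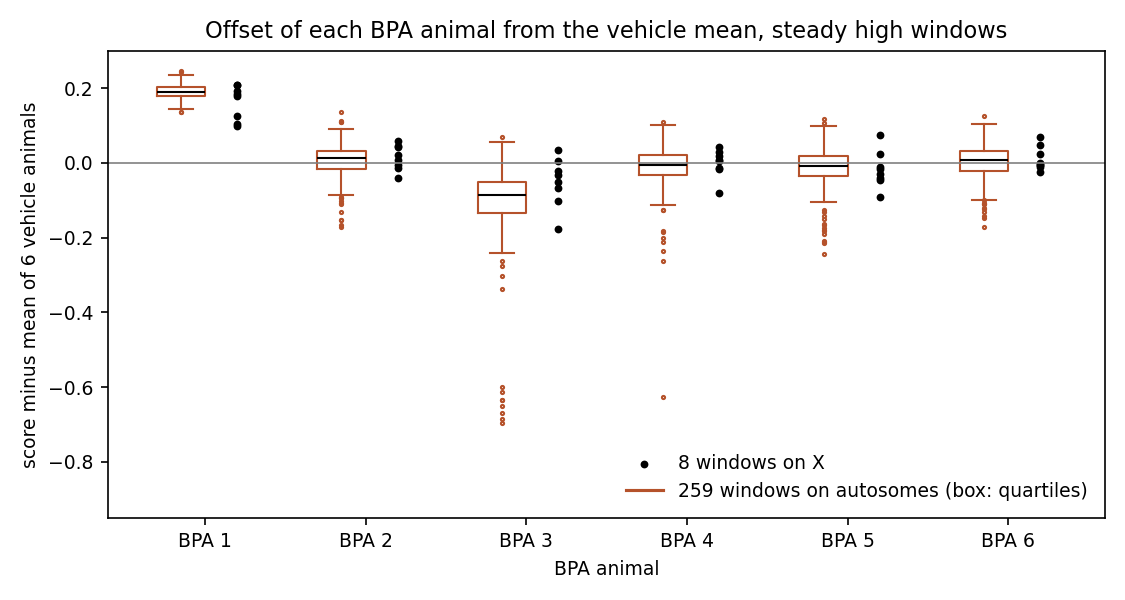
Each BPA animal's score minus the mean of the 6 vehicle animals is shown for the 259 autosomal members (boxes at the quartiles, whiskers to 1.5 interquartile ranges, small circles beyond) and the 8 members on X (black points). BPA animal 1 lies above 0 in every window, with 3 windows on X nearest to 0, BPA animal 3 has an autosomal median of -0.0867, and the other 4 animals centre near 0.

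The windows with the largest spread were those with a score of 0 in a single animal. A zero occurred in 9 members, 8 times in BPA animal 3 and once in BPA animal 4, and in no vehicle animal. At chr17:44690401-44690500 the scores were 0.84, 0.76, 0, 0.63, 0.44 and 0.67 in BPA animals and 0.74, 0.72, 0.42, 0.63, 0.71 and 0.69 in vehicle animals. This window had the largest SD over 12 animals, 0.226, and a low value in 1 vehicle animal too. At chr9:33497201-33497300 they were 0.82, 0.82, 0, 0.65, 0.44 and 0.65 in BPA animals and 0.75, 0.69, 0.72, 0.63, 0.66 and 0.66 in vehicle animals. At chr13:67496401-67496500 they were 0.88, 0.71, 0, 0.60, 0.67 and 0.69 in BPA animals and 0.69, 0.77, 0.67, 0.63, 0.69 and 0.72 in vehicle animals. Apart from the zero in BPA animal 3, the BPA scores of the last window reached both above and below the vehicle range. At chr10:59056401-59056500 the BPA animals averaged 0.608 ± 0.309 and the vehicle animals 0.668 ± 0.0527 (SD, n = 6 each).

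The comparison the design implies is BPA against vehicle, which asks whether prenatal exposure left a mark on DNA methylation in adult fat. Over the whole table, limma on the score with Benjamini-Hochberg adjustment called 0 of 1000 windows (0%), with a smallest adjusted p of 1. At an unadjusted p under 0.05 there were 14 windows (1.4%), a smaller share than the threshold itself. The number of windows with all 6 BPA scores on one side of all 6 vehicle scores was 0 (0%). None of the 267 members was among any of these. Because the rule used the vehicle mean, that count says nothing about the members, and the differences below are given without a test. Over all windows the limma count at an unadjusted p under 0.05 was 37 without BPA animals 1 and 3 and 35 after quantile normalization. In both, 0 windows were called after adjustment.

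The BPA mean was above the vehicle mean in 190 of 267 members (71.2%), below it in 71 and equal in 6, with a median difference of 0.0133 (range -0.122 to 0.0833). Over all windows it was above in 646 of 1000 (64.6%), with a median of 0.0167. This direction rested on BPA animal 1: without it the BPA mean was above the vehicle mean in 53 members and below it in 212, with a median of -0.0203. Without BPA animal 3 it was above in 245 members, with a median of 0.0357. Without both, 46.4% of the members were higher in BPA and 136 members were lower, with a median of -0.00167, beside 512 of 1000 windows (51.2%) higher over the whole table. On the percentile rank within each library, a scale chosen after seeing the data, the median difference was -0.425 percentile points.

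Choosing high windows on the vehicle mean favours those whose vehicle scores happened to lie high, so the same choice was repeated on other means. On the BPA mean, 304 windows qualified, of which 252 were shared, or 94.4% of the members and 82.9% of the other list. Their median difference was 0.0200 with all animals and 0.00417 without BPA animals 1 and 3. On the mean of all 12 animals 279 windows qualified, of which 261 were shared, and the medians were 0.0167 and 0.000833. Without BPA animals 1 and 3 the median thus lay below 0 when windows were chosen on the vehicle mean, and above 0 when chosen on the BPA mean or on all animals, each time by less than the step of 0.01 in the deposited score.

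**Figure D4:**
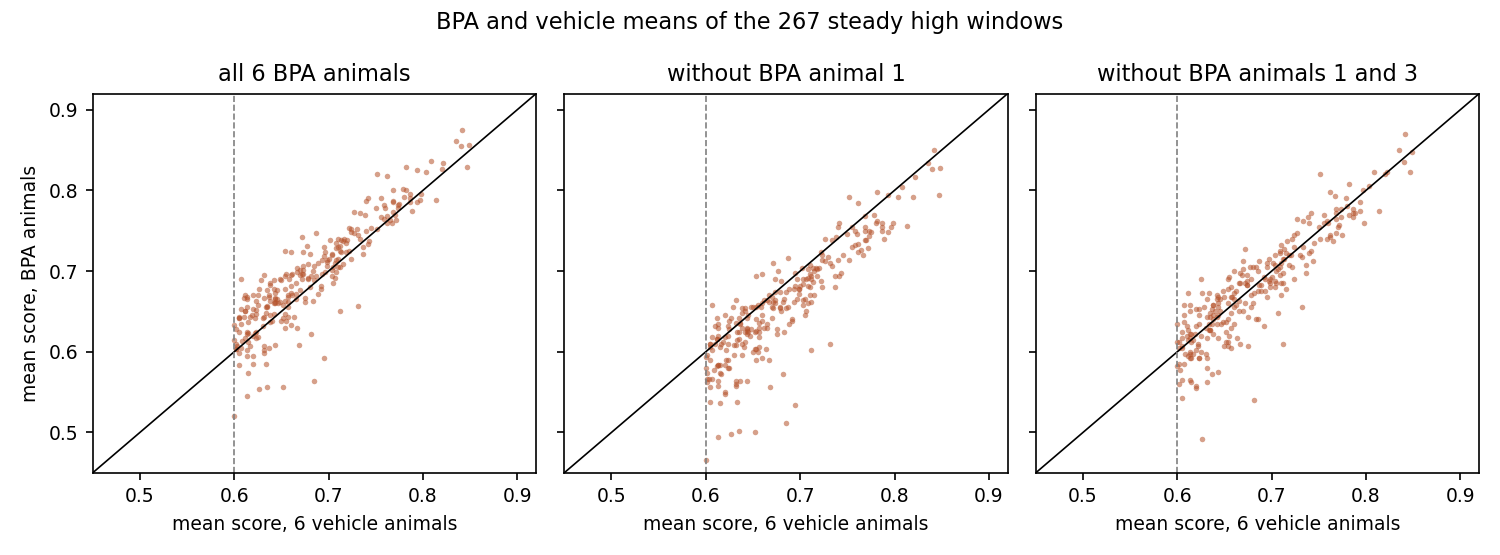
The mean score of the BPA animals is plotted against that of the 6 vehicle animals for each of the 267 windows, with all BPA animals, without animal 1, and without animals 1 and 3. The solid line marks equal means and the dashed line the threshold of 0.60, and 71.2%, 19.9% and 46.4% of the windows lie above the solid line in the 3 panels.

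The member with the largest excess in BPA was chr6:86487401-86487500, at 0.85, 0.65, 0.66, 0.69, 0.67 and 0.62 in BPA animals 1 to 6 and at 0.67, 0.72, 0.56, 0.60, 0.52 and 0.57 in vehicle animals 1 to 6. The difference was 0.0833, and vehicle animals 1 and 2 lay within the range of the BPA animals. Without BPA animal 1 the difference was 0.0513, and without BPA animals 1 and 3 it was 0.0508. At chr12:72463201-72463300 the scores were 0.88, 0.71, 0.71, 0.60, 0.76 and 0.69 in BPA animals and 0.60, 0.69, 0.67, 0.65, 0.68 and 0.63 in vehicle animals. The difference was 0.0717, 0.0407 without BPA animal 1 and 0.0367 without BPA animals 1 and 3. The other 3 windows named for a high BPA mean were chr15:29449101-29449200, chr10:36255501-36255600 and chr18:15421301-15421400, with differences of 0.070, 0.0683 and 0.0633. Without BPA animals 1 and 3 these 3 differences were 0.0558, 0.0683 and 0.040.

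The 5 members with the largest deficit in BPA were all windows at 0 in BPA animal 3, and the rule leaves little room for a zero in a vehicle animal. At chr9:33497201-33497300, whose scores are given above, the difference was -0.122, and -0.009 without BPA animal 3. The differences were -0.103 at chr13:67496401-67496500, -0.095 at chr17:44690401-44690500, -0.080 at chr5:141488601-141488700 and -0.0783 at chr16:62936001-62936100. Without BPA animal 3 these 4 were 0.015, 0.0163, 0.024 and 0.033, so each turned its sign. Without BPA animals 1 and 3 they were -0.0275, -0.0267, -0.0175 and -0.0075, and that of chr9:33497201-33497300 was -0.045, so all 5 were lower in BPA. These windows were picked for a BPA deficit partly on these same scores, so their shared direction supports nothing. Among all 267 members, 136 were lower in BPA without BPA animals 1 and 3. The window on chromosome 16 had scores of 0.83, 0.65, 0, 0.60, 0.53 and 0.73 in BPA animals and of 0.60, 0.69, 0.63, 0.65, 0.72 and 0.52 in vehicle animals.

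A line in the authors' deposited RNA table marks vehicle animals 2, 3 and 5 as low in Fggy, a carbohydrate kinase gene, and vehicle animals 1, 4 and 6 as high. The member score averaged 0.668 to 0.701 in the low animals and 0.651 to 0.703 in the high ones. The median difference per window was 0.0133 (170 members higher and 82 lower in the low animals), beside 0.010 over all 1000 windows (552 higher and 396 lower). Vehicle animal 4 was the lowest vehicle animal, at 0.651 over members and 0.415 over all windows. The other high animals had member means of 0.703 and 0.678. The counts were not repeated without vehicle animal 4, and no test was made.

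What the rule did not use is the position of the windows. Members occurred on all 20 chromosomes of the table, which are the autosomes and X. The share of a chromosome's windows that were members ran from 15.7% on X (8 of 51 windows, 95% Wilson interval 8.17% to 28.01%) to 41.7% on chromosome 9 (20 of 48, interval 28.8% to 55.7%). Chromosome 19 had 39.1% (9 of 23) and chromosome 11 had 36.5% (19 of 52). The interval of chromosome 9 alone lay above the 26.7% of the whole table, and the intervals cover counting error over windows only. It is 1 of 20 chromosomes, looked at together.

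The X chromosome and the autosomes differed at the limit on zeros. On X 18 of 51 windows (35.3%, interval 23.6% to 49.0%) were at 0 in at most 2 animals, against 629 of 949 autosomal windows (66.3%, interval 63.2% to 69.2%). Of the windows that met this limit, 44.4% on X and 41.2% on the autosomes had a vehicle mean of 0.60 or more. All animals were male and carry a single X, and the part of this in these shares was not tested. Members on X had a median BPA mean of 0.712 and a median vehicle mean of 0.704.

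**Figure D5:**
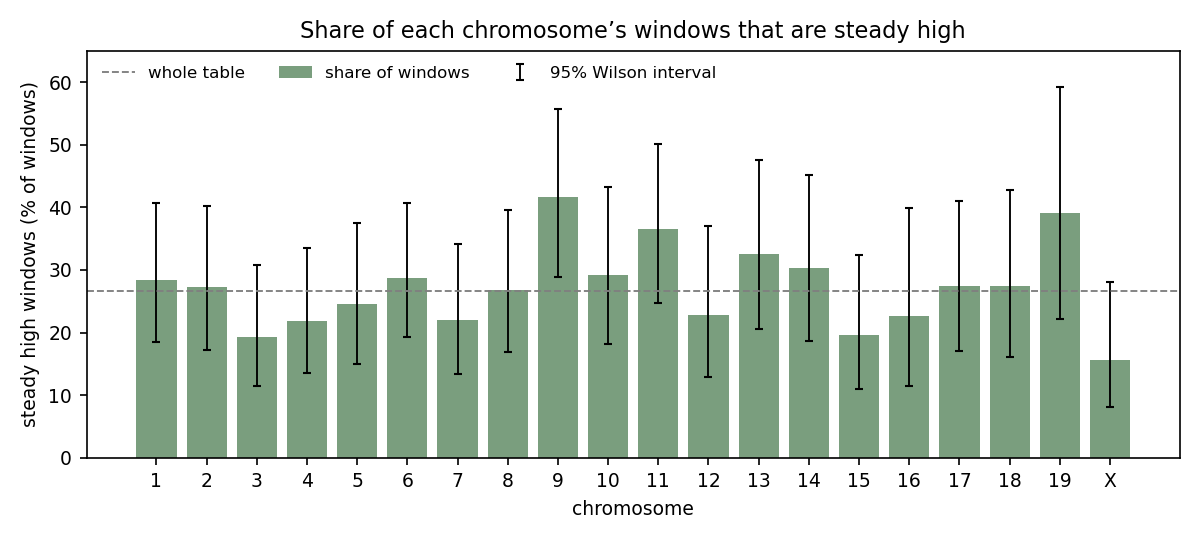
Bars give the steady high windows as a percentage of all windows on each chromosome, with 95% Wilson intervals and the whole-table share of 26.7% dashed. Chromosome 9 is the highest at 41.7% and X the lowest at 15.7%.

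The windows of the table lay far apart, and so did the members. Of 247 pairs of neighbouring members, 0 lay within 1 kb and 8 within 100 kb, beside 2 and 43 of 980 neighbouring pairs in the whole table. The closest members were 48.3 kb apart, on chromosome 12, and the median distance was 5.45 Mb between members and 1.66 Mb in the whole table. Members were 26.7% of the windows, and a smaller set has longer distances and fewer close pairs by its number alone. Whether members lay closer or further apart than their number gives was not tested. The vehicle means of these 8 pairs differed by a median of 0.0667 (range 0.0183 to 0.105), and those of all pairs of members by a median of 0.0567. The closest pair was chr12:72463201-72463300, described above, and chr12:72511501-72511600, with BPA means of 0.725 and 0.770 and vehicle means of 0.653 and 0.738.

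The scores of the members were also positively correlated between libraries, least so for BPA animal 3. Over the 267 windows, Pearson's r between libraries had a median of 0.612 (range 0.520 to 0.704) among the 10 animals other than BPA animals 1 and 3. With these 10 animals BPA animal 1 had r of 0.663 to 0.860, while BPA animal 3 had r of 0.330 to 0.518 with the other 11. The windows share their CpG content across libraries and were chosen from a narrow range of scores, so these correlations are a description only.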

How the data were processed

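MBD-seq and RNA-seq libraries of 12 animals were used, grouped by the sample descriptions, with the animal number in each title naming its table column. The authors deposited an MBD score per 100 bp window, between 0 and 1 on mm9. The submitters' processing notes name edgeR and mm9, and the deposited name of the scores also holds MEDIPS. The sources used here name no aligner, version or coverage. The authors' deposited RNA signal (normalized reads for each gene) served only for the tissue check and the authors' Fggy marking. A further 48 per-sample columns in narrower RNA tables stayed unused.

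The 2 groups were compared, BPA minus vehicle, by limma 3.58.1 in R 4.3.3 on the score of all 1000 windows, with an intensity trend, two-sided, with Benjamini-Hochberg adjustment at 0.05. Litters are not named, so littermates could not be accounted for. The procedure was checked on simulated data with independent noise and added differences larger than any seen in the members. That simulation held no shifts of whole libraries and no bounds on the score, so it does not cover those features of the data. Shares of windows carry 95% Wilson intervals. The members, the windows' naming rule and the alternatives were chosen with earlier results of these data known. Windows were named for the 6 highest vehicle means, the 4 nearest either side of the threshold, the 5 largest differences in each direction, the 4 smallest and 4 largest SDs, and up to 4 of those at 0 in 1 or 2 animals. A rule for windows within 1 kb of each other found none. Alternatives were another scale, filter, normalization, threshold or choice of mean, a replicate block, and leaving out animals.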

Additional observations from a re-analysis of the deposited data

Results flagged for a closer look

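Of 26 named windows, each looked at in both groups (52 sets of 6 scores), 11 sets had an extreme animal whose gap to its nearest neighbour took up more of the group's range than the 95% critical value for 6 samples. Chance flags about 1 in 20 sets, but these windows were named for zeros, large SDs and large differences, so that rate is no yardstick for this count. In the BPA group the highest score was that of BPA animal 1 at chr4:150147501-150147600 (score 1, gap 0.667 of the range), chrX:72908201-72908300 (0.92, gap 0.692), chr6:86487401-86487500 (0.85, gap 0.696), chr18:15421301-15421400 (0.86, gap 0.632) and chrX:8944901-8945000 (0.79, gap 0.714). The lowest was that of BPA animal 3, at 0, at chr5:141488601-141488700 (gap 0.709), chr13:67496401-67496500 (gap 0.682), chr16:62936001-62936100 (gap 0.639) and chr10:59056401-59056500 (gap 0.713). In the vehicle group animal 4 stood low at chr11:106856601-106856700 (0.72, gap 0.647) and animal 3 at chr17:44690401-44690500 (0.42, gap 0.656). Over all 267 members, 65 sets in BPA (24.3%) and 24 in vehicle (8.99%) met this limit, and 57 of the 65 were due to BPA animal 1.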

How the results depend on the processing

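Over all windows limma called 0 under every alternative run, the replicate block included, with 5 to 37 windows at an unadjusted p under 0.05. Leaving out 1 animal at a time moved the median difference of the members between -0.0203 (without BPA animal 1) and 0.0357 (without BPA animal 3), and the number of members between 258 and 280 when a vehicle animal was left out of the mean. The median was 0.0133 with the replicate block, -0.005 after subtracting each library's median, -0.00396 after quantile normalization and -0.00167 without BPA animals 1 and 3, the last chosen after seeing the data. A threshold of 0.65 left 170 members and one of 0.55 gave 366. Of 440 values of the 22 named members under alternatives, 41 had the other sign. The 440 include the replicate block, the limit on zeros and the fit without an intensity trend. By construction these 3 alternatives cannot change a difference of group means, so their unchanged values and the unchanged median are no check. Those on the log2 and arcsine scales are compared by sign only. Same-numbered BPA and vehicle libraries had correlations of -0.0909 to 0.0127 in their deviations from the group mean. These gave no sign of pairing by number. Each library's own mean was removed first, so a shift shared by whole libraries could not be seen. The unknown depth and the 2 decimals of the score limit all values.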
